A study of Mus musculus with 26 samples.

Results

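Transcripts of the kinesin, cytoplasmic dynein and dynactin genes were followed in oligodendrocyte progenitor cells (OPCs), which divide, and in the cells made from them that form myelin, oligodendrocytes (OLs). The genes were chosen by name only: Kif followed by a digit, Klc followed by a digit, and every name starting with Dync, Dynl or Dctn followed by a digit for dynactin. This took 51 of the 10104 transcripts listed for either cell type. Of the 51, 43 were among the 8530 transcripts of OPCs, 44 were among the 9751 of OLs, and 36 were listed for both. They comprised 10 mitotic kinesins, 11 transport kinesins, 3 kinesin-1 light chains, 7 other kinesins, 4 chains of cytoplasmic dynein-1, 1 chain of dynein-2, 8 dynein light chains and 6 dynactin subunits. The last of the 51, Kif1bp, is matched by its name but encodes a KIF1-binding protein and no motor.

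Kinesins and dyneins are motors that use ATP to move along microtubules, most kinesins towards the plus ends and dynein towards the minus ends. Mitotic kinesins build and shorten the spindle, move chromosomes and serve in cytokinesis, and their genes are known to be transcribed mainly from S phase to mitosis. Transport kinesins carry vesicles, mitochondria and mRNA granules outwards, and dynein with its activator dynactin carries cargo inwards. In oligodendrocytes, microtubule transport into the long processes is known to bring myelin components, among them the mRNA of Mbp, to the sites of wrapping.

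Cells of strain 129S/SvEv were used. OPCs were derived from epiblast stem cells and grown with bFGF and PDGFA. OLs were obtained from OPCs that had been passaged without bFGF, in medium with noggin, IGF-1, cyclic AMP, NT3 and the thyroid hormone T3, and had differentiated for 40 h when labelling began. Both were labelled for 24 h with 5-ethynyluridine (5-EU), a uridine analogue, and then chased with unlabelled uridine for 0, 1, 2, 4 or 6 h, after which the labelled RNA was pulled down and sequenced. There were 3 OPC replicates and 2 OL replicates at each of the 5 times. Values at 0 h are FPKM, a measure of fragments divided by transcript length and by the mapped reads of the library. Later values are FPKM scaled to labelled spike-in RNA. The study's methods speak of scaling at each time, but the 0 h values carry the decimals of unscaled FPKM and were read as such, which leaves their scale uncertain. Relative to the median of each library the comparison at 0 h gave equal counts of called motor genes. For all values, the number of reads is unknown.

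The labelled cell types were checked with marker lists. Of 10 OL markers, 9 were listed in OLs and 3 in OPCs, and their summed level at 0 h was 39.2 to 57.5 FPKM in the OPC replicates and 2940 to 6320 FPKM in the OL replicates. All 10 OPC markers were listed for both, with sums of 1620 to 1790 FPKM in OPCs and 1400 to 1600 FPKM in OLs. Of these 10, 5 were higher and 3 lower in OLs, so the like sums do not stand for unchanged genes: Olig1 was at 1010 to 1080 FPKM in OPCs and at 506 to 635 FPKM in OLs, and Gpr17, also known from cells early in differentiation, at 5.0 to 6.61 and 299 to 323 FPKM. Of 6 astrocyte markers 5 were listed, with sums of 419 to 503 and 383 to 666 FPKM. Of the 4 tested, Slc1a2 was 3.03-fold higher in OLs and 3 were not called. Of these 3, Slc1a3 was at 179 to 224 FPKM in OPCs and at 95.5 and 155 FPKM in OLs. Aldoc differed by -0.07 log2 units, and Gja1 was at 40.1 and 188 FPKM in the OL replicates. Gfap, which was not tested, was listed in OLs alone at 6.86 and 8.12 FPKM. The part of these markers in the results was not tested. Of 7 neuron markers 3 were listed, with sums of 81.8 to 183 and 188 to 203 FPKM, and none of 6 microglia markers was listed. In such bulk cultures fewer cells of a type and less RNA per cell cannot be told apart. OPC replicate 1 stood apart at 0 h: across 8518 transcripts, its log2 ratio to the mean of the other two replicates had a Spearman correlation of 0.442 with GC content and of -0.441 with transcript length. It was therefore low for long, AT-rich transcripts, several motors among them, and values without it are given where a call at 0 h or in half-life changed.

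Promoters were read first, as the mitotic and transport kinesins could be compared there whether or not they were listed in both cell types. Many genes of G2 and mitosis are known to carry a CHR element (cell cycle genes homology region), often a short way downstream of CCAAT boxes. TTTGAA or its reverse complement TTCAAA was searched as the CHR motif, and CCAAT or ATTGG as the CCAAT motif, on both strands from 250 bases before to 50 bases after each gene start. The promoters came from RefSeq on GRCm38.p6, which supplied 39 of the 51. The CHR motif was in 8 of 9 mitotic kinesin promoters (Kif11, Kif14, Kif15, Kif18b, Kif20b, Kif22, Kif2c and Kif4), in 0 of 9 transport kinesin promoters, and among the other members in that of Dctn1 alone. It was in 17.9% of all 32851 promoters. In 6 of the mitotic kinesins a match began within 50 bases of the start, a distance chosen after the matches were seen, against 4.9% of all promoters. Both motifs together were in 5 of the 9 mitotic kinesin promoters and in 7.0% of all. The mitotic kinesin without the motif was Kif18a. For Kif2c the promoter window starts from a gene start 3867 bases from that of the listed transcript, so its match is least certain. Matches are descriptions of the sequence, and binding of a factor was not measured.

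Shown next are the 100 bases before and 30 bases after the start of 4 mitotic kinesin genes that hold both motifs and 2 transport kinesin genes, which show the contrast between the groups. Sequences run 5′ to 3′ on the strand of the gene, and capitals mark CHR and CCAAT motifs. They lie at chr19:37376282-37376411 (+) for Kif11, chr11:102925095-102925224 (-) for Kif18b, chr7:127042391-127042520 (-) for Kif22, chrX:100625965-100626094 (+) for Kif4, chr1:93101845-93101974 (-) for Kif1a and chr2:153291316-153291445 (+) for Kif3b.
Kif11: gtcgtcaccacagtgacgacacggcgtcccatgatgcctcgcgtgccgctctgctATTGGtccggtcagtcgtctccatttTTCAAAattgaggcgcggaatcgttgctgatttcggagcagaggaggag
Kif18b: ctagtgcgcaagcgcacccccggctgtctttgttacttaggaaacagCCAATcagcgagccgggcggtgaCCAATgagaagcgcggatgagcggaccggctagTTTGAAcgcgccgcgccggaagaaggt
Kif22: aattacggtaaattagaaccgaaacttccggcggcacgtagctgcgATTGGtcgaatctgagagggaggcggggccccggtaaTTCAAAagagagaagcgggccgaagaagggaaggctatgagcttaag
Kif4: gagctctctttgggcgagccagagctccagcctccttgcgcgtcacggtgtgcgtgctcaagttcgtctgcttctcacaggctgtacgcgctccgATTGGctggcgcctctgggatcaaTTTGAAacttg
Kif1a: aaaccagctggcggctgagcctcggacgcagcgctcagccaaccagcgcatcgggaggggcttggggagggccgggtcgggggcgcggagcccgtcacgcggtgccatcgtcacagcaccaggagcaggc
Kif3b: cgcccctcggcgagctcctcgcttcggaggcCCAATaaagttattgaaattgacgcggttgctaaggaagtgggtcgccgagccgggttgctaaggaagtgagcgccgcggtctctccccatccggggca

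**Figure D1:**
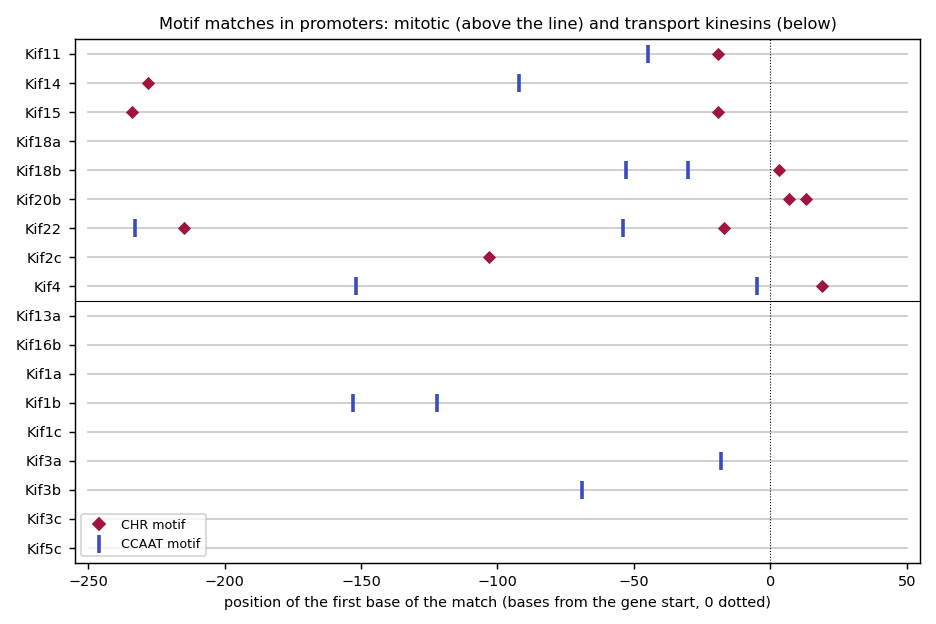
Matches of the CHR motif (diamonds) and the CCAAT motif (bars) in the promoters of 9 mitotic kinesins above the line and 9 transport kinesins below it, by position in bases from the gene start. CHR matches are in 8 of the 9 rows above the line and in 0 of the 9 below it.

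The listing itself separated mitotic from transport motors. A transcript was kept by the authors where it had at least 1 FPKM at 0 h and was not at 0 at 1 and 2 h in the replicates of a cell type. A transcript that is not listed failed either part of this filter, so its 0 h level in those cells is not known, and a short-lived transcript can be missing for its values in the chase. Of the 9 mitotic kinesins listed in OPCs, 7 were not listed in OLs, against 4.14% of all OPC transcripts. No other member was listed in OPCs and not in OLs. Of the 11 transport kinesins, all were listed in OLs and 8 in OPCs. OLs listed 8 members that OPCs did not, against 16.1% of all OL transcripts. Such a filter acts on low values, so these counts are descriptions.

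The 7 mitotic kinesins listed in OPCs alone were these. Kif20a, which acts in cytokinesis, was at 25.1, 28.9 and 30.8 FPKM at 0 h in OPC replicates 1, 2 and 3. Kif2c, which removes tubulin from microtubule ends at kinetochores, was at 24.2, 22.6 and 27.6 FPKM. Kif22, a motor on chromosome arms, was at 15.7, 11.4 and 15.2 FPKM. These 3 differed little between replicates. Kif4, a chromosome motor that also acts at the midzone of the spindle, was at 3.86, 20.3 and 12.9 FPKM. Kif20b was at 1.56, 13.6 and 6.90 FPKM, Kif15, which helps to hold the spindle bipolar, at 1.88, 13.5 and 5.19 FPKM, and Kif14 at 2.17, 7.6 and 5.11 FPKM. Genes on the other strand, Cdc23 and Pdzd11, share 25.7% of the exonic bases of Kif20a and 16.7% of those of Kif4, and whether reads were counted by strand is not given in the sources used here. In each of the last 4, OPC replicate 1 was the lowest and replicate 2 the highest. The median log2 ratio of OPC replicate 1 to the mean of the others was -1.26 over the mitotic kinesins, -0.10 over the transport kinesins and 0 over all transcripts, and the part of base composition in it was not tested.

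Of the 8 members listed in OLs alone, 1 was mitotic. Kif18a, which limits chromosome movements at metaphase, was at 3.90 and 1.11 FPKM in OL replicates 1 and 2, close to the filter in the second. The 3 transport kinesins were Kif3a, a subunit of kinesin-2, at 6.67 and 15.2 FPKM, Kif13b at 9.71 and 5.88 FPKM, and Kif16b, an endosome motor, at 2.79 and 2.66 FPKM. Among the other kinesins, Kif19a was high, at 66.4 and 42 FPKM, and Kif21a was at 19.0 and 13.5 FPKM. Kif26a was at 2.83 and 2.16 FPKM, and the light chain Klc4 at 3.72 and 6.28 FPKM. Kif19a was the highest of the 8 in both OL replicates.

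Labelled RNA at 0 h was compared between OLs and OPCs for the 36 members listed in both, with limma on log2(FPKM + 1) over all 8177 shared transcripts. A member was called where its Benjamini-Hochberg adjusted p was under 0.05. Higher in OLs were 11 members, against 13.8% of all transcripts, and lower were 2, against 15.8%. The median log2 difference of OLs minus OPCs was 0.34 over the 36 members and -0.01 over all transcripts. The study calls its replicates biological, the labels do not say what separates them, and the p-values measure only the spread between these samples.

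Both mitotic kinesins listed for the 2 cell types were lower in OLs. Kif18b, which shortens astral microtubules in mitosis, was at 31.8, 31.9 and 37.5 FPKM in OPC replicates 1, 2 and 3 and at 4.74 and 1.16 FPKM in OL replicates 1 and 2. The difference was -3.30 ± 0.38 log2 units (SE), or 9.85-fold lower (limma adjusted p = 7.46e-04). Its transcript lies at chr11:102905529-102925124 on the minus strand with 16 exons. Kif11, the motor that pushes the spindle poles apart, was at 16.0, 45.3 and 31.3 FPKM in OPCs and at 12 and 4.41 FPKM in OLs, with a difference of -1.81 ± 0.48 (limma adjusted p = 0.0259), or 3.51-fold lower. The groups did not overlap for either gene, which the call itself favours. Without OPC replicate 1 the difference for Kif11 was -2.20, and its call was lost without OPC replicate 2 (-1.48), OPC replicate 3 (-1.74) or OL replicate 2 (-1.18). OL replicate 1 was above OL replicate 2 in both genes.

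Other genes of the spindle and of cytokinesis behaved in the same direction. From a list of 27 such genes that are no members, 25 were listed in OPCs and 14 in OLs, and 11 were listed in OPCs alone, against 4.14% of all OPC transcripts. Of the 14 tested, 12 were lower in OLs and 2 were not called, against 15.8% lower over all transcripts, with a median of -2.63. The largest differences among them were those of Cdc20, a cofactor of the anaphase-promoting complex (-3.96, 15.5-fold lower), Plk1, a mitotic kinase (-3.70), and Ccnb1, cyclin B1 (-3.47). Their summed level at 0 h was 1130 to 1260 FPKM in OPCs, 159 FPKM in OL replicate 1 and 58.9 FPKM in OL replicate 2, so replicate 1 of the OLs was the higher one here as in Kif11, Kif18a and Kif18b. The part that remaining dividing cells have in these levels was not tested.

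Transport kinesins were higher in OLs or did not pass the threshold. Of the 8 tested, 4 were higher in OLs and 4 were not called, against 13.8% higher over all transcripts, and their median difference was 0.76. Kif1a, a motor of synaptic vesicle precursors and other cargo vesicles, was at 20.6, 16.0 and 18.6 FPKM in the OPC replicates and at 45.0 and 50.0 FPKM in the OL replicates, a difference of 1.33 ± 0.22 (limma adjusted p = 0.0038). Kif5b, the widespread heavy chain of kinesin-1, was at 18.8, 57.1 and 34.0 FPKM and at 93.4 and 84.3 FPKM, 2.62-fold higher (1.39 ± 0.41, limma adjusted p = 0.0364). Without OPC replicate 1 its difference was 0.99 and stayed past the threshold. Kif5c, the kinesin-1 heavy chain known from neurons, was low in both, at 3.84, 5.25 and 3.46 FPKM and at 11.1 and 8.43 FPKM (1.06 ± 0.25, limma adjusted p = 0.0155). Kif1c was at 16.5, 11.3 and 14.2 FPKM in OPCs and at 22.7 and 38.1 FPKM in OLs (1.04 ± 0.28, limma adjusted p = 0.0285). In all 4 the lowest OL value lay above the highest OPC value. The call itself favours such separation, and its share over all transcripts was not counted. Over the members listed in each cell type, the median log2 level of mitotic minus transport kinesins was 0.15 ± 0.34 in OPCs (SD, n = 3; 9 mitotic and 8 transport) and -2.05 ± 1.22 in OLs (SD, n = 2; 3 mitotic and 11 transport). These values rest on different members, so they describe each cell type and were not compared.

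The other 4 transport kinesins did not pass the threshold. Kif1b, which carries mitochondria and vesicles, was at 29.4, 33.8 and 35.3 FPKM in OPCs and at 45.3 and 46.3 FPKM in OLs, also without overlap (0.47 ± 0.21, limma adjusted p = 0.123). Kif13a was at 8.93, 13.2 and 9.57 FPKM and at 12.1 and 16.5 FPKM. The kinesin-2 subunit Kif3b was at 8.91, 10.5 and 7.57 FPKM and at 10.1 and 14.2 FPKM, and its relative Kif3c at 16.1, 14.1 and 17.4 FPKM and at 14.8 and 15 FPKM. For Kif3c 38.5% of the exonic bases are shared with an antisense gene on the other strand. With the strand of counting not given, reads of the 2 genes cannot be told apart.

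**Figure D2:**
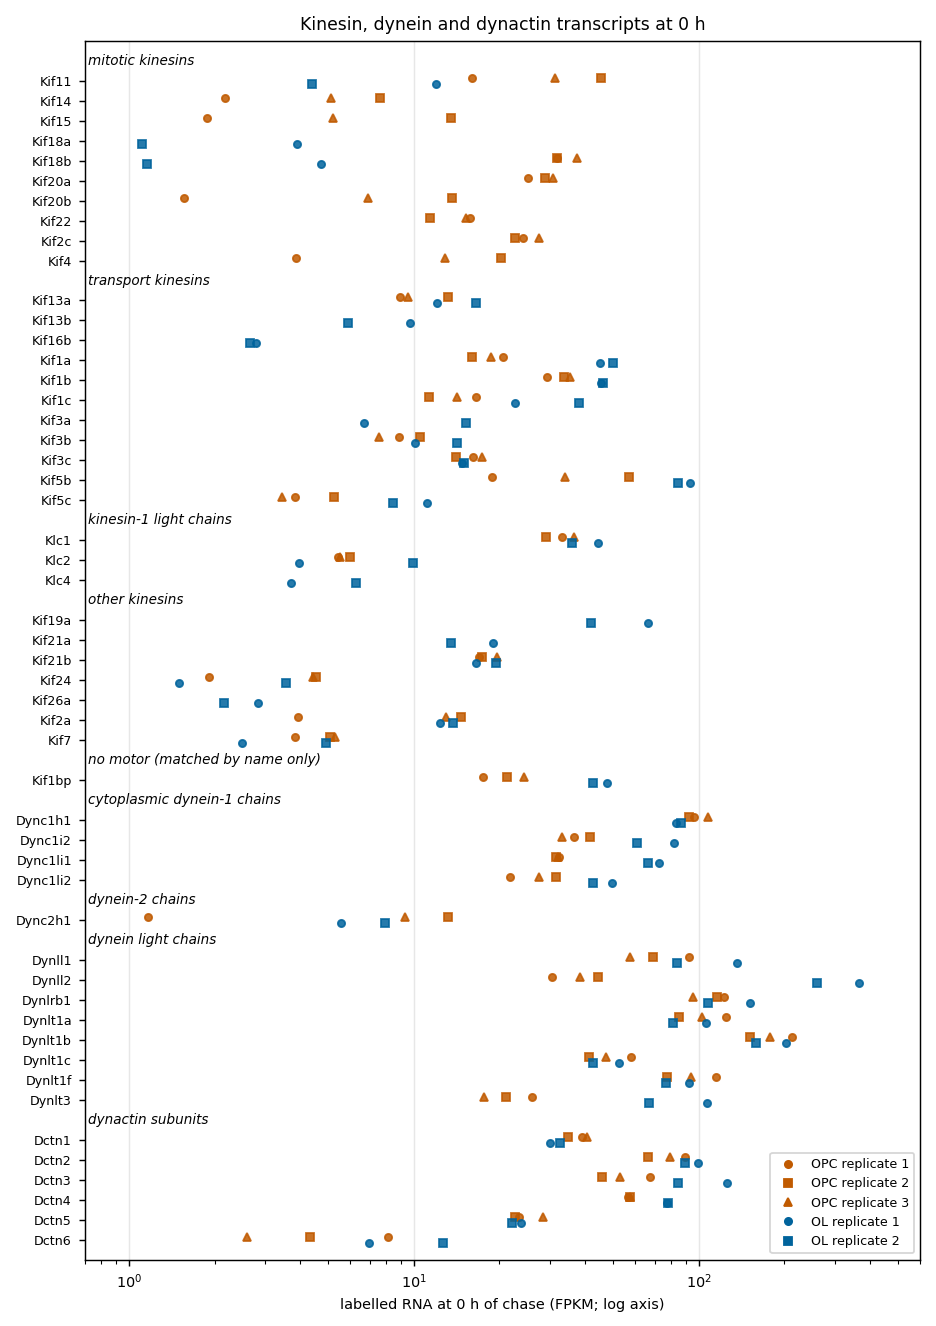
Labelled RNA at 0 h in FPKM on a log axis for all 51 transcripts by group, with 1 point for each replicate. Mitotic kinesins have points of OPCs alone or lie lower in OLs, apart from Kif18a, and Dynll2 and Dynlt3 show the widest gaps in the opposite direction.

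Of the 18 dynein-1 chains, light chains and dynactin subunits, 6 were higher in OLs and 12 were not called, against 13.8% higher over all transcripts, with a median of 0.36. Of the members that were higher in OLs, a light chain had the widest difference. Dynll2, which is shared by dynein and myosin V, was at 30.6, 44.3 and 38.3 FPKM in the OPC replicates and at 366 and 261 FPKM in the OL replicates. This was 8.10-fold higher, 3.02 ± 0.26 log2 units (limma adjusted p = 2.62e-04), and at 0 h it made Dynll2 the highest member of all in OLs. Its transcript lies at chr11:87979525-87987533 on the minus strand with 3 exons. Dynlt3, a light chain of the Tctex family, was at 26, 21.0 and 17.7 FPKM and at 107 and 66.9 FPKM, 3.84-fold higher (1.94 ± 0.28, limma adjusted p = 0.00213).

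The remaining light chains did not pass the threshold. Dynll1, which differs from Dynll2 in few residues, was at 92.7, 69.2 and 57.6 FPKM and at 136 and 83.9 FPKM (0.57 ± 0.30, limma adjusted p = 0.184). Per length, Dynll1 was thus above Dynll2 in every OPC replicate and below it in both OL replicates. Dynlrb1 was at 95.6 to 123 FPKM in OPCs and at 108 and 151 FPKM in OLs. The 4 copies Dynlt1a, Dynlt1b, Dynlt1c and Dynlt1f on chromosome 17 share 59.4% to 93.7% of their runs of 50 bases with other transcripts, so their separate values are uncertain, and their differences were -0.16 to 0.01.

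Among the dynein-1 chains, both light intermediate chains and the intermediate chain were higher in OLs, and the heavy chain was not. Dync1li1, an adaptor-binding chain, was at 32.4, 31.5 and 32.0 FPKM and at 72.6 and 66.2 FPKM (1.09 ± 0.20, limma adjusted p = 0.00658). Dync1li2 was at 21.7, 31.5 and 27.5 FPKM and at 49.7 and 42.7 FPKM (0.77 ± 0.24, limma adjusted p = 0.0433), and without OPC replicate 1 its difference was 0.63 (limma adjusted p = 0.0693). The intermediate chain Dync1i2, which binds dynactin, was at 36.6, 41.5 and 33.2 FPKM and at 81.7 and 61.0 FPKM (0.92 ± 0.23, limma adjusted p = 0.0222). The heavy chain Dync1h1, which is the motor itself, was at 96.2, 92.7 and 108 FPKM in OPCs and at 83.1 and 86.8 FPKM in OLs (-0.22 ± 0.21, limma adjusted p = 0.458). For the dynein-2 heavy chain Dync2h1, OPC replicate 1 was at 1.17 FPKM and the others at 13.2 and 9.31 FPKM, and OLs were at 5.55 and 7.95 FPKM.

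One dynactin subunit of 6 was called. Dctn3, a small subunit of the shoulder, was at 67.4, 45.7 and 52.8 FPKM and at 126 and 84.9 FPKM (0.91 ± 0.27, limma adjusted p = 0.0378). The large subunit Dctn1, which binds microtubules and dynein, was at 39.0, 34.9 and 40.6 FPKM and at 30.2 and 32.5 FPKM (-0.28 ± 0.21). For Dctn2, Dctn4, Dctn5 and Dctn6 the differences lay between -0.11 and 0.90. Without OPC replicate 1 Dctn6 was called as well (1.26, limma adjusted p = 0.0165), at 8.14 FPKM in that replicate, 4.32 and 2.6 FPKM in the other OPC replicates and 6.95 and 12.7 FPKM in OLs. Kif1bp was at 17.5, 21.3 and 24.4 FPKM in OPCs and at 47.7 and 42.6 FPKM in OLs (1.07 ± 0.23, limma adjusted p = 0.0113). An antisense gene shares 20.0% of its exonic bases.

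The calls differed in how firmly they stood. Those of Dynll2, Dynlt3, Kif1a and Kif18b were kept under every alternative run for this comparison. The 11 members called higher became 5 without OPC replicate 3, 4 without OL replicate 1 and 6 without OL replicate 2, and Dctn3 and Dync1li2 were each lost in 4 of the 5 fits that left out a replicate. For Dync1li1 the call was lost without OL replicate 1, for Kif1bp without either OL replicate, and for Kif5b, Kif5c, Kif1c and Dync1i2 without OPC replicate 3 and at least 1 OL replicate. That of Kif1c was also lost without OPC replicate 2 (0.90, limma adjusted p = 0.0567). With a pseudocount of 0.1 the call of Dync1li2 was lost (0.79, limma adjusted p = 0.0523).

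Partners of the motors were examined from a list of 27 adaptors and regulators, of which 19 were tested. Of these, 6 were higher in OLs and 1 was lower, with a median of 0.23, beside 13.8% and 15.8% of all transcripts. Trak2, which links kinesin-1 to mitochondria, was the highest of them (1.21, 2.31-fold), followed by Kifap3, the cargo-binding subunit of kinesin-2 (0.95, 1.93-fold), and Pafah1b1, the dynein regulator LIS1 (0.91, 1.88-fold). Nde1, a dynein regulator that is needed for the division of neural progenitors, was lower (-0.87).

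How labelled motor RNA fell over the chase was asked next, with limma on log2(FPKM + 1) and time as a slope. Each replicate had its own intercept, and the 15 OPC or 10 OL libraries were the units. The p-values of these slopes therefore rest on times within 3 and 2 cultures and not on the spread of replicate slopes. In OPCs 35 of 43 members fell, against 81.7% of all transcripts, and 1 rose, against 4.31%. In OLs 22 of 44 fell, against 68.4%, and 1 rose, against 1.5%. Over the members the median of the slopes, in log2 units per h, was -0.30 in OPCs beside -0.38 over all transcripts, and in OLs it was -0.13 beside -0.20. A slope on this scale understates the fall of transcripts near 1 FPKM.

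All 9 mitotic kinesins fell in OPCs, with a median slope of -0.57, and all 8 transport kinesins fell, with a median of -0.28. Since 81.7% of all transcripts fell, the counts do not set the members apart. The steepest members were Kif20a (-0.90 ± 0.08), Kif18b (-0.72 ± 0.09), Kif22 (-0.70 ± 0.07) and Kif2c (-0.68 ± 0.09), each mitotic (limma adjusted p = 5.74e-08, 1.16e-06, 2.72e-07 and 4.55e-06). Kif20a, Kif20b and Kif22 were listed at 0 FPKM at 6 h in all 3 OPC replicates, as were Kif7 and Kif24 outside the mitotic group. In single replicates 15.7%, 21.6% and 16.4% of all transcripts were at 0 in replicates 1, 2 and 3. The share at 0 in all 3 was not counted, and Kif20b had started from 1.56 FPKM in replicate 1. Transport kinesins were spread more widely. Of the 8, 2, 4 and 3 lay below the median of all transcripts at 6 h in OPC replicates 1, 2 and 3, against 7, 9 and 8 of the 9 mitotic kinesins. Kif3b was at 5.61%, 9.2% and 3.74% of its 0 h level, Kif3c at 7.4%, 5.4% and 12.2%, and Kif13a at 15.9%, 1.56% and 15.9%, within or near the range of the mitotic kinesins. Others kept more. At 6 h Kif1a was at 47.9%, 6.11% and 53.6% of its 0 h level in OPC replicates 1, 2 and 3 and at 128% and 56.7% in OL replicates 1 and 2, and Kif1b at 24.4%, 14.5% and 31.7% and at 80.0% and 64.6%.

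Group medians at 6 h showed the order in each replicate. Mitotic kinesins were at 4.49%, 6.92% and 2.18% of 0 h in the OPC replicates, transport kinesins at 19.8%, 10.7% and 37.6%, and dynein-1, light chains and dynactin at 37.3%, 57.3% and 63.0%. All transcripts were at 14.4%, 11% and 17.7%. In OLs the 3 mitotic kinesins were at 9.81% and 29.2%, the transport kinesins at 38.2% and 45.6%, and dynein-1, light chains and dynactin at 90.3% and 82.0%, beside 31.5% and 36.6% for all. In OPC replicate 2 the transport kinesins did not lie above all transcripts.

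**Figure D3:**
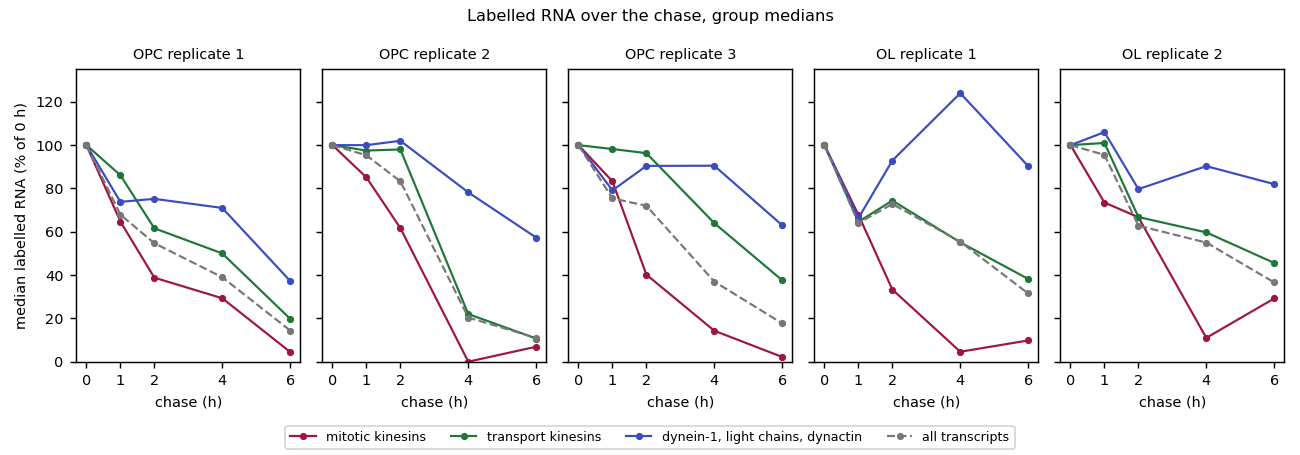
Median labelled RNA in percent of 0 h over the chase in h, 1 panel for each replicate, for mitotic kinesins, transport kinesins, dynein-1 with light chains and dynactin, and all transcripts (dashed). Mitotic kinesins end lowest and the dynein and dynactin set highest in all 5 panels.

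Since a spike-in factor moves all transcripts of a library together, slopes were also taken relative to the median of each library. On this scale 20 of 43 members rose in OPCs, against 39.8% of all transcripts, and 6 fell, against 13.9%. In OLs 20 of 44 rose, against 31.2%, and 5 fell, against 13.8%. The 6 that fell in OPCs were the mitotic kinesins Kif20a (-0.46), Kif18b (-0.28), Kif22 (-0.26) and Kif2c (-0.24) with Dctn4 (-0.19) and Dync1li1 (-0.13). The 5 that fell in OLs were Kif11 (-0.20), Kif19a (-0.13), Dynll2 (-0.12), Dctn4 (-0.11) and Kif2a (-0.10). Of the 9 mitotic kinesins, 1 rose relative to the median in OPCs, Kif15, at 1.88 FPKM in one replicate. Of the 8 dynein light chains 7 rose in OPCs and 6 in OLs, and of the 6 dynactin subunits 4 rose in each.

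Dynlt3 was the 1 member that rose without centring, in both cell types. It was at 112%, 176% and 185% of 0 h after 6 h in the OPC replicates and at 148% and 169% in the OL replicates, with slopes of 0.12 ± 0.04 and 0.13 ± 0.05 log2 units per h (limma adjusted p = 0.00998 and 0.0315). The transcript lies at chrX:9654267-9663003 on the minus strand. Both calls rest on the number of replicates: no member rose in OPCs without replicate 2 or 3, nor in OLs without either replicate. They also set later values, scaled to spike-ins, against 0 h values that were read as unscaled. The part of this difference in scale in the rise was not tested. Relative to the median of each library, the slopes of Dynlt3 were 0.56 in OPCs and 0.37 in OLs. Without centring, another light chain, Dynll2, fell in both cell types (-0.41 ± 0.05 and -0.36 ± 0.04), to 11.5% to 26.7% in OPCs and to 16.5% and 28.1% in OLs. Dynll2 thus had the widest difference among the members higher in OLs at 0 h and fell over the chase in both cell types.

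**Figure D4:**
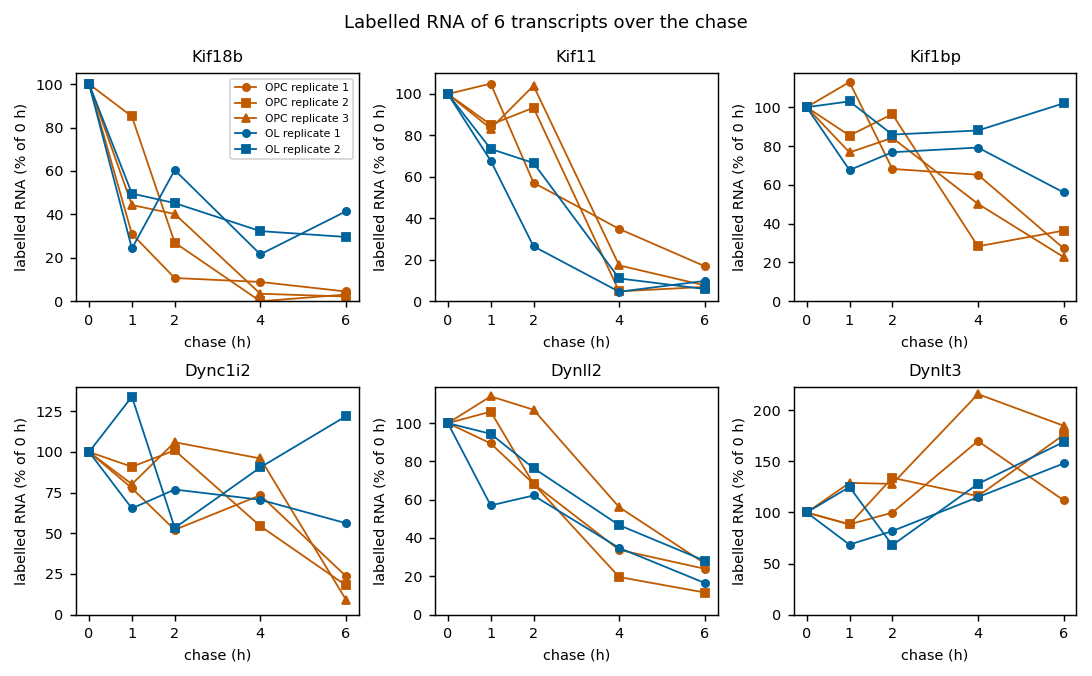
Labelled RNA in percent of 0 h against hours of chase for 6 transcripts, with 1 line for each replicate. Kif18b falls steeply in OPCs and Kif11 in both, Kif1bp and Dync1i2 stay higher in OLs than in OPCs at 6 h, Dynll2 falls in both and Dynlt3 ends above 100% in every replicate.

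The deposited half-lives are limited in a way that touches these genes. They were fitted by the authors to 5 times with least absolute deviations, and estimates above 6 h were set to 6 h. Where the values at 1 and 2 h lie above the fitted curve and those at 4 and 6 h below it, the sum of deviations has its minimum at 1.957 h whatever the size of the deviations. In OPC replicate 2, 25.6% of all 8491 half-lives were within 0.005 h of this value with this pattern, and 7.43% in replicate 3 and 2.14% in replicate 1. In OL replicates 1 and 2 it was 0.474% and 1.38%. Of 42 members, 13 had this value in OPC replicate 2, 5 of them mitotic (Kif11, Kif15, Kif20a, Kif22 and Kif4), and 6 had it in replicate 3. A half-life of 1.96 h in the next paragraphs is this value and does not separate transcripts.

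Mitotic kinesins had short half-lives. Their median was 1.63, 1.96 and 1.75 h in the OPC replicates over 9 transcripts, and 1.26 and 2.45 h in the OL replicates over 3. For transport kinesins it was 2.71, 2.1 and 5.25 h over 8 transcripts and 4.64 and 5.28 h over 11. The difference of medians, mitotic minus transport, was -1.57 ± 1.73 h in OPCs (SD, n = 3) and -3.11 ± 0.39 h in OLs (SD, n = 2). In OPCs it was -0.14 h in replicate 2, where most mitotic kinesins had the fixed value, so this difference was no larger than the spread between replicates, though it was below 0 in all 5 replicates. Without OPC replicate 3 the mean difference was -0.61 h, and without replicate 2 it was -2.29 h. The members were chosen by name and their groups by known function, and no test was made between the groups. In OPC replicates 2 and 3 all 9 mitotic kinesins lay below the median of all transcripts (2.05 and 2.79 h), and in replicate 1, with a median of 2.33 h, 6 of 9 did. In OLs 3 of 3 lay below it. Of the mitotic kinesins in OPCs, 5 in replicate 2 and 3 in replicate 3 were at the fixed 1.96 h. This value lies just under the median of replicate 2, so the count there does not set them apart.

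Kif18b was the shortest-lived mitotic kinesin in OPC replicates 1 and 3, at 0.592 and 0.851 h, and Kif20b in replicate 2, at 0.807 h. Kif18b was at 1.06 h in replicate 2, and at 2.75 and 2.45 h in the OL replicates (a log2 difference of 1.68, limma adjusted p = 0.0889). Kif11 was at 2.48, 1.96 and 1.96 h and at 1.04 and 1.96 h, and did not pass the threshold either. Kif20b was at 1.11 and 1.42 h in OPC replicates 1 and 3, Kif2c at 1.18, 1.86 and 1.22 h, Kif22 at 1.59, 1.96 and 1.75 h, Kif20a at 1.63, 1.96 and 1.96 h, and Kif14 at 2.26, 1.76 and 1.80 h. Kif4 and Kif15 were at the 6 h ceiling in OPC replicate 1, where both were under 4 FPKM, and at 1.24 to 1.96 h in the others. Kif18a, listed in OLs alone, was at 1.26 and 3.38 h.

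**Figure D5:**
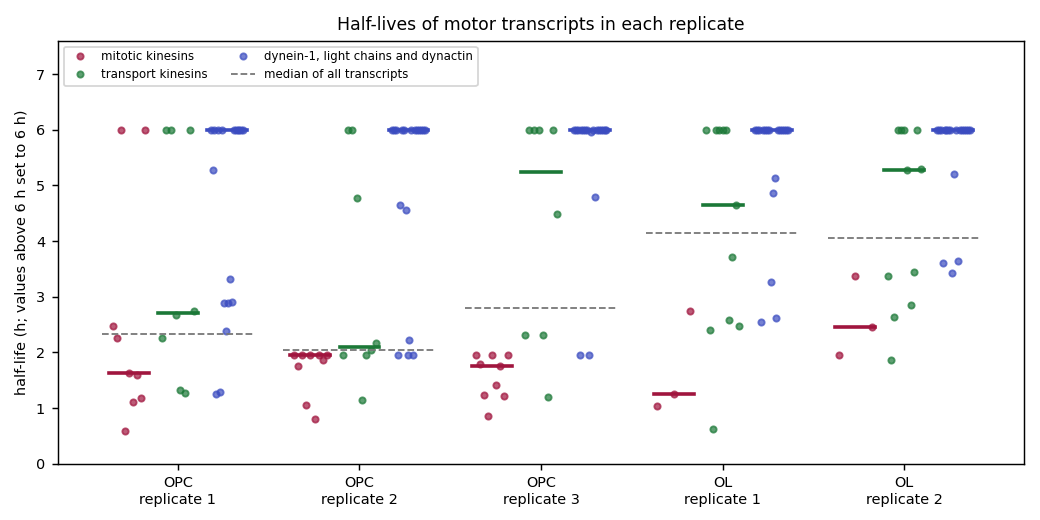
Half-lives in h, with values above 6 h set to 6 h, for each transcript of 3 groups in each replicate; thick lines are group medians and dashed lines the median of all transcripts. The mitotic points lie low with a row at 1.96 h in OPC replicates 2 and 3, and most dynein and dynactin points lie at 6 h.

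Deposited half-lives of transport kinesins ran from 0.627 h to the ceiling. Kif1a and Kif1b were at the 6 h ceiling in all 5 replicates, although less than the 50% that a half-life of 6 h leaves remained at 6 h for Kif1b in all OPC replicates and for Kif1a in OPC replicates 1 and 2. For these the ceiling values do not show a long life in OPCs. Kif5b had 6.00, 2.04 and 6.00 h in OPCs and 4.64 and 6.00 h in OLs, Kif1c at 2.67, 4.77 and 6.00 h and at 6.00 h in both, and Kif5c at 2.74, 2.17 and 4.49 h and at 2.47 and 5.30 h. The kinesin-2 subunits were short-lived in OPCs: Kif3b was at 1.33, 1.14 and 2.32 h and Kif3c at 1.27, 1.96 and 1.19 h. In OLs they were at 2.59 and 2.86 h and at 3.72 and 3.44 h, and their partner Kif3a, listed in OLs alone, was at 6.00 and 5.28 h. Kif13a was at 2.26, 1.96 and 2.31 h and at 6.00 and 3.38 h. Of the others listed in OLs alone, Kif13b was at 2.40 and 1.86 h and Kif16b at 0.627 and 2.63 h. Outside the transport group, those listed in OLs alone were Kif19a (4.75 and 3.31 h), Kif21a (2.87 and 3.83 h), Kif26a (2.96 and 1.89 h) and Klc4 (6.00 h in both).

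Most deposited half-lives of dynein and dynactin transcripts were at or near the ceiling. At the ceiling in all 5 replicates were 11 of the 35 members with a half-life in each, against 16.1% of all transcripts, and 9 of the 11 were dynein or dynactin: Dync1h1, Dctn1, Dctn3, Dynlrb1, Dynlt3 and the 4 uncertain Dynlt1 copies. Within one complex half-lives still differed. Dctn4, a subunit at the pointed end of the dynactin filament, was at 1.25, 1.96 and 1.96 h in OPCs and at 2.55 and 3.61 h in OLs, while Dctn1 and Dctn3 were at 6 h throughout. In OPCs, 91.9%, 109% and 129% of Dctn3 remained at 6 h, but 33.8%, 32.5% and 55.4% of Dctn1. The first 2 values of Dctn1 are less than a half-life of 6 h leaves, so there its ceiling does not show a long life. The same held for ceiling values of Dctn5 (32.0%), Dctn6 (0%), Dync1i2 (9.12%) and Dynll1 (48.7%), each in 1 OPC replicate. Dync1li1 was at 2.39, 1.96 and 1.96 h and at 3.27 and 3.43 h, a log2 difference of 0.68 (limma adjusted p = 0.0873). It passed the threshold without OPC replicate 1 (0.77, limma adjusted p = 0.0375), where both OPC values left are the fixed one. Their equality then comes from the fit, so this call is not read as a difference. The heavy chain Dync1h1 was at 6 h throughout. Dynll2 was at 2.90, 1.96 and 4.79 h and at 2.62 and 3.64 h, and Dync2h1 had no half-life in OPCs.

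Half-lives were compared between cell types with limma on log2 values over 8112 transcripts. Longer in OLs was 1 of 35 members, Kif1bp, against 3.39% of all transcripts, and 0 were shorter, against 0.148%. The median log2 difference was 0.24 over the members and 0.37 over all transcripts, so the members' median lay below that of the whole table. The half-life of Kif1bp was 3.63, 4.12 and 4.03 h in OPCs and sat at the 6 h limit in OL replicates 1 and 2 (0.62, limma adjusted p = 0.0478). It lies at chr10:62558470-62578457 on the minus strand. Its call was lost without OPC replicate 2 (0.65), OPC replicate 3 (0.64), OL replicate 1 (0.62) or OL replicate 2 (0.62), and relative to the median of each replicate its difference was -0.29. At an unadjusted limma p under 0.05 there were 5 members, against 23.0% of all transcripts. The ceiling bounds this comparison, since the 11 members at 6 h throughout could not differ.

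The slope of log2(FPKM + 1) in each replicate does not have this ceiling. Compared between the cell types, 10 of 36 members were shallower in OLs, against 23.7% of all transcripts, a share near the background. They were Kif18b, Dync1i2, Kif21b, Dctn4, Klc2, Kif3c, Kif7, Kif1c, Klc1 and Kif1bp. The widest was Kif18b, with a difference of 0.62 ± 0.09 on the log2 scale for each h (limma adjusted p = 0.003). It was at 4.49%, 3.08% and 2.18% of 0 h after 6 h in the OPC replicates and at 41.4% and 29.6% in the OL replicates, where its 0 h level was 4.74 and 1.16 FPKM. With a pseudocount of 0.1 in place of 1, an alternative chosen after seeing the data, 2 members were shallower, Kif7 and Kif24, against 6.96% of all transcripts, and Kif18b was at 0.74 with a limma adjusted p of 0.0533. For the list of spindle and cytokinesis genes the measures differed in sign over the 14 tested, with a median log2 half-life difference of -0.29 and a median slope difference of 0.30, at which 7 were shallower in OLs.

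Mitotic and transport motors also differed in base composition, which the choice by name did not use. The median share of G and C at the last position of codons was 48.7% over the 10 mitotic kinesins, 57.6% over the 11 transport kinesins and 60.6% over all transcripts. The median share of AAA among lysine codons was 48.9%, 35.7% and 37.5%. The ranges overlapped, from 35.0% to 66.5% and from 43.1% to 69.8% for the first measure. Kif18b, the shortest-lived in 2 OPC replicates, stood at the GC-rich end of the mitotic kinesins with 66.5%, and Kif18a at the other end with 35.0%. Median transcript length was 4090 nt for mitotic and 5990 nt for transport kinesins, beside 3100 nt for all. These features were not tested against half-life.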

How the data were processed

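Labelled RNA from 15 OPC and 10 OL libraries was analysed, and 1 control without biotin was not analysed here, so bead background was not subtracted. The authors aligned reads to GRCm38 with HISAT2 2.1.0 and tabulated FPKM with StringTie 1.3.5 and ballgown over canonical transcripts, scaled the deposited FPKM to 5-EU-labelled spike-ins (at each time per their methods, though the 0 h values look unscaled), dropped transcripts under 1 FPKM at 0 h or at 0 at 1 and 2 h, and fitted half-lives in h with a 6 h ceiling. The depth of each library is unknown, so no counting error is given. Samples were grouped by their labels. From the FPKM, limma 3.58.1 (R 4.3.3) was run on log2(FPKM + 1) or log2 half-life over whole tables with Benjamini-Hochberg adjustment, and tested on simulated data. Fold changes are on the log2(FPKM + 1) scale. Positions and sequences came from GENCODE M21 and RefSeq on GRCm38. The members and lists were chosen with earlier results of these data known. Named were all mitotic and transport kinesins, members called or listed in one cell type, and up to 3 genes per direction in other lists. Other members and markers were named after their values were seen. The study matches the 2 OL replicates to 2 of the OPC replicates, but which ones is not given in the sources used here. Deviations of same-numbered replicates correlated at 0.0589 and 0.0102 at 0 h and at -0.00162 and -0.105 in log2 half-life. For half-life, OL replicate 1 with OPC replicate 2 gave 0.105, and OL replicate 2 with OPC replicate 3 gave 0.101. Numbers were therefore not taken as pairs, and no other pairing was used. Promoters of Dync1li2, Dctn6, Dynll2, Dynlt1a, Dynlt1b, Klc2, Kif19a, Kif21b, Kif13b, Kif20a, Kif5b and Dctn4 were not used here.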

Additional observations from a re-analysis of the deposited data

Results flagged for a closer look

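For 10 transcripts the slope of log2(FPKM + 1) over the chase differed between the cell types by the test of the difference itself (limma over 8177 transcripts, adjusted p from 0.003 to 0.0491), and all 10 were shallower in OLs, as were 23.7% of all transcripts. OLs minus OPCs, the difference was 0.62 log2 units per h for Kif18b, 0.33 for Dync1i2, 0.31 for Kif21b, a kinesin that also slows microtubule growth, and 0.28 for Dctn4. It was 0.27 for the kinesin light chain Klc2, 0.26 for Kif3c and for Kif7, a regulator of Hedgehog signalling in cilia, 0.25 for Kif1c, and 0.24 for the light chain Klc1 and for Kif1bp. In each of the 10, every OL slope was shallower than every OPC slope, which the call itself favours. For Kif18b the OPC slopes were -0.55, -0.84 and -0.78, and those of the OLs were -0.12 and -0.10. A slope on this scale is compressed at low levels, its OL levels at 0 h were 4.74 and 1.16 FPKM, and its call was lost with a pseudocount of 0.1 (0.74, limma adjusted p = 0.0533). Of the 10, Kif7 alone was still called with that pseudocount (0.75, limma adjusted p = 0.0268). Antisense genes overlap exons of Kif3c, Kif7, Klc2 and Kif1bp.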

How the results depend on the processing

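At 0 h, leaving out a replicate gave 4 to 11 motor genes higher in OLs (4 without OL replicate 1) and 1 to 2 lower. Over all transcripts 1127 were higher and 1294 lower, and 419 and 477 without OL replicate 1. Replicate numbers were not shown to pair the samples, and with a replicate block (pairing by number) 8 motor genes were higher, with Dctn3, Dync1i2 and Dync1li2 lost, 2 were lower and 0 had a longer half-life. Longer half-lives were called for 0 to 2 members when a replicate was left out (without OPC replicate 1 also Dync1li1, without OPC replicate 2 Kif3c in place of Kif1bp), for Kif18b in place of Kif1bp without transcripts at the ceiling (1.68), and for 0 when centred on replicate medians (Kif1bp then -0.29), as percentile ranks, when refitted without 6 h, or, chosen after seeing the data, without transcripts at a fixed half-life. Without OPC replicate 1, both OPC half-lives of Dync1li1 were the fixed value. Slopes gave 10 and, with pseudocount 0.1, also chosen after seeing the data, 2. In OPCs 0 to 1 rose when a replicate was left out, 2 (with Dynlrb1) without the 4 h library of replicate 2 (chosen after seeing the data, since 14.8% of its transcripts were listed at 0), 20 relative to the library median, and 6 then fell. The fall of Dctn6 was lost without OPC replicate 1 (-0.21, limma adjusted p = 0.103). In OLs 0 rose when either replicate or the 6 h libraries were left out, 14 to 20 fell without a replicate, and 20 rose and 5 fell relative to the median.

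Relative to the median, slopes in OPCs turned positive for Dynll1 (0.26), Dynll2 (0.03), Kif5b (0.18), Dctn2 (0.30), Kif5c (0.19), Dctn5 (0.23), Dctn6 (0.15), Kif15 (0.14), Dync1li2 (0.08), Dync2h1 (0.25), Kif1b (0.15), Kif1bp (0.15), Dync1i2 (0.08), Klc1 (0.18), Dynlt1c (0.39), Kif1c (0.18), Kif24 (0.05), Dctn1 (0.26), Klc2 (0.04), Dynlt1a (0.38), Kif1a (0.21), Dynlt1f (0.39), Dynlt1b (0.40) and Kif14 (0.06). In OLs they did for Klc4 (0.18), Dynll1 (0.06), Dync1h1 (0.22), Kif5b (0.12), Dctn2 (0.23), Kif5c (0.02), Dctn5 (0.08), Dctn6 (0.22), Dync1li2 (0.06), Dync2h1 (0.05), Kif1b (0.17), Kif7 (0.03), Kif1bp (0.19), Kif21b (0.04), Dync1i2 (0.20), Klc1 (0.22), Kif21a (0.04), Kif1c (0.22), Dctn1 (0.20), Kif26a (0.04), Kif18b (0.13), Klc2 (0.10) and Kif24 (0.10). Without the 6 h libraries Dctn6 (0.02) and Kif1a (0.03) did so in OPCs. The level of mitotic minus transport kinesins in OPCs was -0.67 with light chains, dynein-1 and dynactin in the transport group and -0.05 without OPC replicate 2, and the half-life difference in OLs was -4.14 h with that group and -3.81 h for transcripts of at least 5 FPKM. The causes of these changes were not tested.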
